A study of Sus scrofa with 4 samples.

Results

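The genes described here are the enzymes and regulators of de novo lipogenesis, the route by which a cell builds fatty acids from carbohydrate carbon. They are ACLY, ACACA, ACACB, FASN, SCD, ELOVL6, ME1, SREBF1, MLXIPL and THRSP, and they were taken by gene symbol from the protein-coding rows, which gave 10 genes of 16192 mRNAs. Subcutaneous preadipocytes of male Chinese Erhualian piglets in their first week of life were grown to confluence (D0), and RNA was taken at D0 and again at day 2, day 4 and day 8 of differentiation in culture (D2, D4 and D8). A hormone cocktail of dexamethasone, 3-isobutyl-1-methylxanthine and insulin was present up to D2, insulin alone from D2 to D4, and plain growth medium with serum from then to D8. Each stage was 1 library, made from equal amounts of RNA of 3 piglets, so a stage and its library cannot be told apart, no value has a replicate error, and no test between stages was possible. Cells of all stages came from the stromal preparation of the same animals, and no culture kept without the cocktail was analysed.

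In de novo lipogenesis, citrate leaves the mitochondrion and is split into acetyl-CoA, which is carboxylated to malonyl-CoA and condensed into palmitate with reducing power from NADPH. Palmitate is then lengthened to stearate and desaturated to oleate, the form in which much of it enters triglyceride. In adipocytes the enzymes are switched on during differentiation, mainly through transcription factors that respond to insulin and to sugar, and in pigs adipose tissue is the main site of this synthesis.

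For SCD and ELOVL6 the study also ran quantitative RT-PCR with replicate RNA samples at each stage, and it reported trends similar to its sequencing. Those RT-PCR values are not used here. The primers are shown, 5′ to 3′, because they mark the transcripts measured at the last steps of the route, the desaturation and the elongation.
SCD forward: gccacctttcttcgttacgc
SCD reverse: cctcacccacagctcccaat
ELOVL6 forward: gctgatcttcctgcactggt
ELOVL6 reverse: tgcacgccatagttcatggt

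Levels are given as FPKM, fragment counts scaled to the length of a transcript and the size of its library, so they can be compared between genes. The libraries held 54128151 to 75387428 fragments behind these values, and whole reads were recovered for each gene, so the 95% intervals given below, Poisson for a level and Clopper-Pearson for a ratio, are exact for the recovered reads and cover counting error only. The label of the cells was checked on marker genes: the summed FPKM of 8 adipocyte markers was 122, 484, 1715 and 2066 at D0, D2, D4 and D8, and all 8 were above 0 in every library. FABP4 led this sum in each library, with 853 at D4 and 1557 at D8. Of the 6 markers that reached 1 FPKM in 3 or more libraries, 1 was higher and 5 lower at D8 than at D4, with a median log2 ratio of -0.91. Over all 8 markers that median was -0.49, and CIDEC, outside these 6, was higher at D8 than at D4. The adipocyte lipid droplet protein PLIN1 was at 2.28, 36.1, 215 and 90.3 FPKM, and the adipokine ADIPOQ at 3.80, 29.6, 179 and 158. Of 7 preadipocyte or fibroblast markers, 6 were measured, and their sum was 1097, 2144, 2847 and 2219, led by COL3A1 (491, 1286, 2058 and 1624). The sum follows COL3A1 and does not stand for the list at D8. Relative to D0, the D8 level was raised for 2 of the 6 and reduced for 4 (median log2 ratio -0.17), with COL3A1 alone past 2-fold. For D4 over D0 these counts were 4 and 2 (median 1.04). The leptin gene LEP stayed at or below 0.314 FPKM in all 4 libraries. Smooth and skeletal muscle markers, of which 3 of 5 were measured, summed to 3343, 362, 229 and 2798, led by the smooth muscle actin ACTA2 (2907, 324, 225 and 2762), so that this list was lowest at D4. Summed markers stayed at 1.14 to 2.63 FPKM for endothelium (4 of 4 measured, with VWF listed at 0 after D0 and CDH5 at 0 in all but D4) and at 3.59 to 8.81 for macrophages and leukocytes (5 of 5, CSF1R at 0 at D8). The only measured erythroid gene of 3, HBB, was listed at 0 except for 0.271 at D4, and the liver-type list summed to 1.63 to 6.88, with ALB at most 0.0399. In such bulk RNA, fewer cells of a type and less RNA per cell cannot be told apart, and the part of these cell type markers in the values below was not tested.

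Of the 10 genes, 9 were at least 2-fold higher at D4 than at D0, ACACB was 1.21-fold lower, and none was at least 2-fold lower. The 9 covered every step of the route from citrate cleavage to desaturation, and both transcription factors. Across the 9191 reliably expressed mRNAs, those that reached 1 FPKM in 3 or more libraries, 10.4% were at least 2-fold higher at D4 than at D0. The median log2 ratio of the 10 genes was 2.74, against 0.06 for the 9191 mRNAs. MLXIPL had no read at D0, and its place above the median holds also at the lower end of its counting interval (log2 4.23). The median of the 10 therefore does not depend on the exact ratio of MLXIPL. Reliable expression was met by 7 of the 10 genes, and THRSP met it with a D0 level under 1 FPKM. It was not met by ACACB, SREBF1 and MLXIPL, which are therefore outside the 9191 here and below. Of the 7 alone, all 7 were at least 2-fold higher at D4 than at D0. The same held for 3 of the 7 at D2 over D0, 7 at D4 over D2, 7 at D8 over D0 and 6 at D8 over D2.

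**Figure D1:**
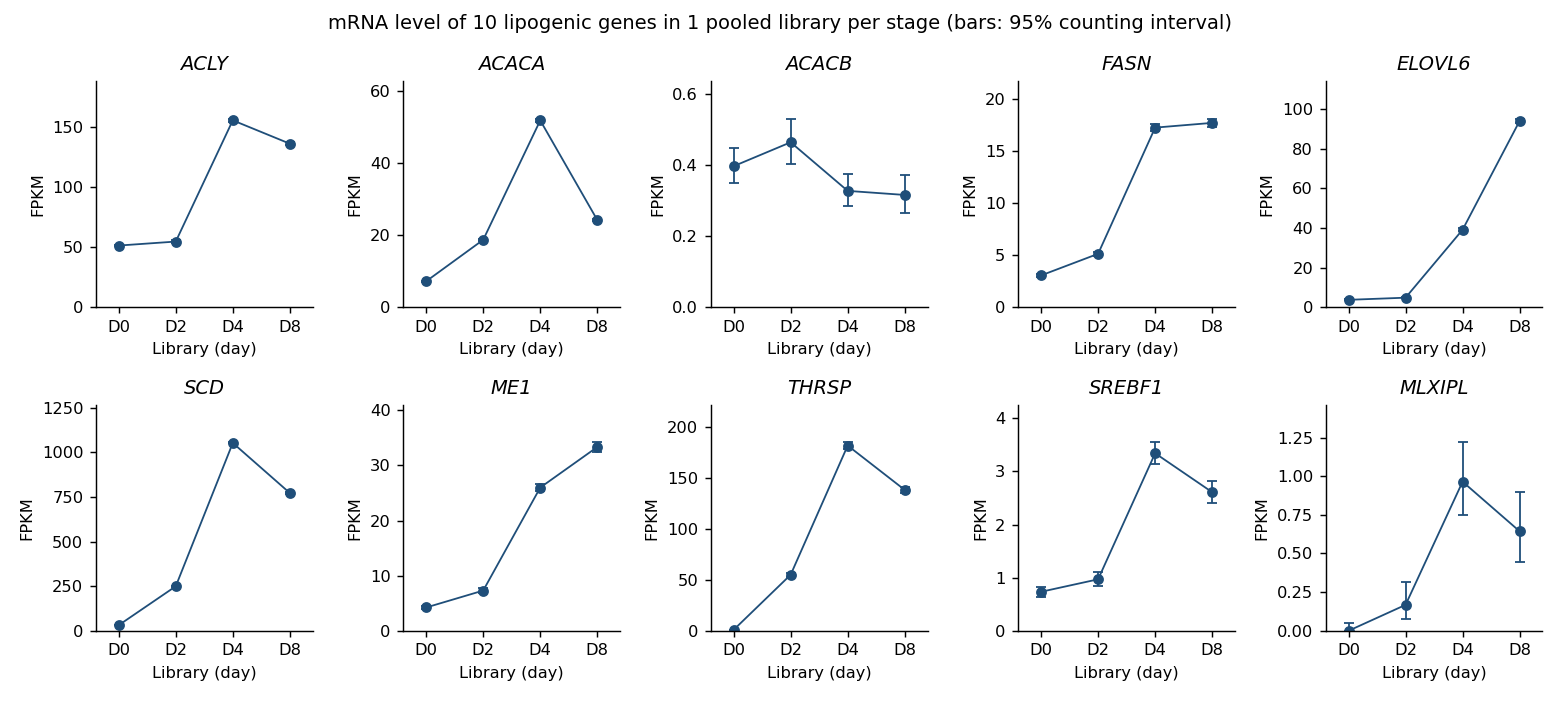
FPKM of each of the 10 genes (y axis, from 0, a scale of its own for each gene) in the D0, D2, D4 and D8 libraries (x axis); points are the single library of each stage and bars its exact 95% Poisson counting interval. ACACA, SCD, THRSP, SREBF1 and MLXIPL were highest at D4, ELOVL6 and ME1 at D8 and ACACB at D2. Counting error alone does not separate D4 from D8 for MLXIPL, nor D2 from D0 for ACACB. The order of D4 and D8 for ACLY and FASN turned with the scaling of the libraries.

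ACLY, ATP citrate lyase, splits exported citrate into cytosolic acetyl-CoA and lies on chromosome 12 (20796678 to 20841301, Sscrofa11.1, plus strand). Its level was 51.3 FPKM at D0 (17130 reads), 54.6 at D2, 156 at D4, then 136 at D8. It was the most abundant of the 10 genes before induction, with 49.8% of their summed FPKM at D0, and its D0 and D2 levels were close together (1.06-fold, log2 ratio 0.09, counting interval 0.06 to 0.12). Only 3.18% of its gain from D0 to D4 was present at D2.

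ACACA encodes the cytosolic acetyl-CoA carboxylase, which makes the malonyl-CoA used for synthesis, and lies on the minus strand of chromosome 12 (38580916 to 38875067). It was at 7.15 FPKM at D0, 18.7 at D2, 51.7 at D4, then 24.1 at D8. It stood 7.23-fold higher at D4 than at D0, and at D8 it was 2.14-fold below D4, the largest drop among the 10 genes. ACACB encodes the isoform at the mitochondrial outer membrane, whose malonyl-CoA is known for holding back fatty acid import into mitochondria, and lies on chromosome 14 (41621574 to 41739916, minus strand). It was at 0.397, 0.464, 0.327 and 0.316 FPKM (252, 215, 205 and 144 reads), and the counting intervals of D0 and D2 overlapped, as did those of D4 and D8. ACACA exceeded ACACB 18.0-fold at D0, 40.2-fold at D2, 158-fold at D4, then 76.4-fold at D8, so the carboxylase transcripts were almost all of the cytosolic form at every stage.

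FASN encodes fatty acid synthase, the multi-domain enzyme that builds palmitate, and lies on chromosome 12 (922405 to 937560, plus strand). It was at 3.04 FPKM at D0, 5.11 at D2, 17.2 at D4, then 17.7 at D8. The last 2 levels overlapped in their counting intervals (16.9 to 17.6 and 17.3 to 18.1), so counting error alone does not separate them. The ratio of ACACA to FASN, neighboring steps of the route, was 2.35, 3.65, 3.01 and 1.37 in the order of the stages.

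ME1, the cytosolic malic enzyme, yields NADPH for these reductions and lies on chromosome 1 (82799878 to 82989895, plus strand). It was at 4.23, 7.30, 26.0 and 33.4 FPKM at D0, D2, D4 and D8, higher at each stage than at the one before. Its profile was the closest to that of FASN: over the log2 ratios to D0 at D2, D4 and D8, the root mean square difference between them was 0.264, the smallest among all pairs of the genes other than MLXIPL, which was left out of the pairs. The next pair was ACLY and SREBF1 at 0.441, and the widest apart were ACACB and THRSP at 7.11.

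ELOVL6, the elongase that adds a pair of carbons to palmitate, lies on chromosome 8 (112038670 to 112190079, plus strand). It was at 3.67 FPKM at D0, 4.75 at D2, 39.1 at D4, then 94.1 at D8. It was 1.30-fold higher at D2 than at D0 and then 8.23-fold higher at D4 than at D2, which placed it 10th from the top of the 9191 mRNAs in that comparison. It was again 2.41-fold higher at D8 than at D4, and no other gene of the 10 passed 2-fold in that direction there.

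SCD, stearoyl-CoA desaturase, sets the double bond that turns stearate into oleate and lies on chromosome 14 (111461560 to 111478033, plus strand). Its level was 31.5 FPKM at D0, 249 at D2, 1053 at D4, then 772 at D8, with 14167 to 466602 reads behind these values. In rank among the 16192 mRNAs of a library it moved from place 1692 at D0 to 219 at D2, 66 at D4, then 92 at D8. At D4 it was 33.4-fold higher than at D0 (log2 ratio 5.06), place 25 from the top of the 9191 mRNAs.

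THRSP, the thyroid hormone responsive protein also called Spot 14, is a nuclear and cytosolic protein linked to lipogenic enzyme activity, and its gene on chromosome 9 (12479913 to 12484323, plus strand) is short. It was at 0.908 FPKM at D0 (68 reads, interval 0.705 to 1.15), 55.0 at D2, 182 at D4, then 138 at D8. It was 60.5-fold higher at D2 than at D0 and 200-fold higher at D4, with log2 ratios of 5.90 (5.57 to 6.29) and 7.63 (7.30 to 8.01). These were the largest differences from D0 measured directly among the 10 genes, and THRSP stood 7th from the top of the 9191 mRNAs at D2 and 4th at D4. Its paralog MID1IP1, which binds acetyl-CoA carboxylase, was at 14.9, 13.4, 18.1 and 15.5 FPKM, under 2-fold between any stages, so the order of the pair was the reverse at D0 of what it was from D2 on.

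SREBF1 encodes SREBP1, the insulin-responsive activator of lipogenic promoters, and lies on chromosome 12 (60733967 to 60750951, plus strand). It was at 0.734 FPKM at D0, 0.970 at D2, 3.34 at D4, then 2.61 at D8 (234 to 1091 reads), a low transcript that was 4.55-fold higher at D4 than at D0. FPKM per gene does not separate its promoter isoforms, and SREBP1 is activated by cleavage of its protein, which these data did not measure. MLXIPL encodes ChREBP, the carbohydrate response element binding protein, and lies on chromosome 3 (10898675 to 10934257, minus strand). It was listed at 0 at D0 and stood at 0.168 FPKM at D2, 0.965 at D4, then 0.644 at D8, from at least 9, 70 and 34 reads. Against the level of 3 reads at D0 (0.0408 FPKM) it was 4.11-fold higher at D2, 23.7-fold at D4 and 15.8-fold at D8. These ratios leave out counting error at D2, D4 and D8. With 0 reads at D0, the counting intervals of the log2 ratios reached down to 1.44, 4.23 and 3.60. It stayed under 1 FPKM in all libraries, and its counting interval for D8 over D4 (log2 -1.22 to 0.03) held 0.

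The 3 periods between samplings differed in which of the genes moved. From D0 to D2, with the full cocktail, all 10 levels were higher, though the counting interval for ACACB (log2 -0.04 to 0.49) held 0. Only ACACA, SCD, THRSP and MLXIPL were at least 2-fold higher, where 6.67% of the 9191 mRNAs were and 10.1% were at least 2-fold lower. The log2 ratios were 1.38 for ACACA, 2.98 for SCD and 5.90 for THRSP. ACLY, FASN, ELOVL6, ME1 and SREBF1 differed by 1.06- to 1.73-fold. The median log2 ratio of the 10 was 0.77, against -0.03 for the 9191.

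From D2 to D4, with insulin alone, 9 of the 10 were at least 2-fold higher, all but ACACB, where 4.24% of the 9191 mRNAs were, and none was at least 2-fold lower, where 0.838% were. Their log2 ratios lay between 1.47 for ACACA and 3.04 for ELOVL6, and the median of the 10 was 1.76, against 0.09 for all. Among them were 5 genes, ACLY, FASN, ELOVL6, ME1 and SREBF1, that had been under 2-fold from D0 to D2 and then passed it from D2 to D4. This late pattern was seen in 1.34% of the 9191 mRNAs, which do not include SREBF1. Of the D0 to D4 gain, the share already present at D2 was 29.9% for THRSP, 25.8% for ACACA and 21.3% for SCD, 17.4% for MLXIPL from few reads, and 14.6% for FASN, 14.1% for ME1, 9.02% for SREBF1, 3.18% for ACLY and 3.06% for ELOVL6. The highest early shares belonged to a lipogenic cofactor, the carboxylase and the desaturase, and the lowest belonged to citrate cleavage and elongation.

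**Figure D2:**
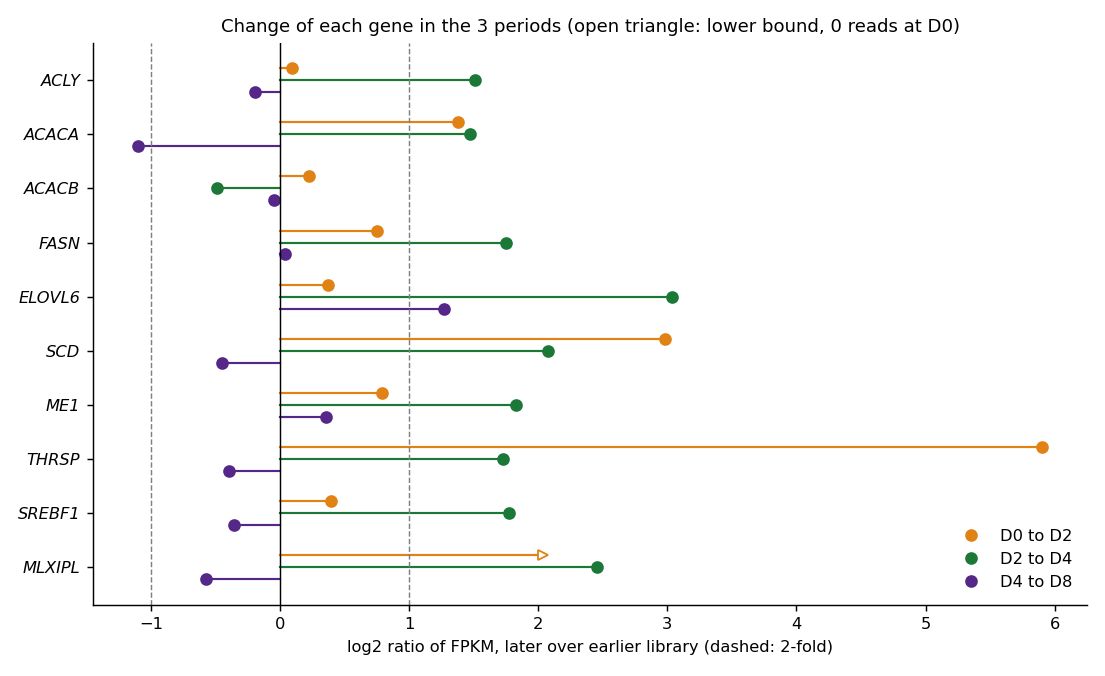
Log2 ratio of FPKM between successive libraries (x axis) for each gene (y axis). Each of the 3 periods has 1 color, and dashed lines are at 2-fold. The open triangle is MLXIPL at D2 against the level of 3 reads at D0, where it had 0 reads, and leaves out counting error at D2. The D2 to D4 points of 9 genes lie right of the 2-fold line, while from D4 to D8 ELOVL6 alone lies right of it and ACACA alone left of the line at -1.

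From D4 to D8, in growth medium, the genes parted. ELOVL6 was 2.41-fold higher and ACACA 2.14-fold lower (log2 ratios 1.27 and -1.10), and the other 8 were under 2-fold in either direction. Among the 9191 mRNAs 4.43% were at least 2-fold higher and 10.1% at least 2-fold lower, and their median log2 ratio was -0.21. When libraries were scaled to an equal median ratio, these shares became 6.43% and 5.94%, and ACACA was no longer past 2-fold (log2 ratio -0.89). As a percentage of the D4 level, D8 stood at 241 for ELOVL6, 128 for ME1, 103 for FASN, 87.5 for ACLY, 78.1 for SREBF1, 76.1 for THRSP, 73.3 for SCD, 66.7 for MLXIPL and 46.7 for ACACA. ACLY and ACACB were on the higher side at D8 under the median-ratio scaling, ACACB also when scaled by RPLP0, PPIA and HPRT1, and FASN was on the lower side under scaling to an equal mRNA sum, so no direction from D4 to D8 is given for these 3.

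Compared with D0, 9 of the 10 were still at least 2-fold higher at D8, all but ACACB, where 3.6% of the 9191 mRNAs were, and none was at least 2-fold lower, where 3.68% were. Leaving out MLXIPL, which had 0 reads at D0, the largest of these were THRSP at 152-fold, ELOVL6 at 25.6-fold and SCD at 24.5-fold. Compared with D2, 8 of the 10 were at least 2-fold higher at D8, all but ACACA and ACACB, where 7.01% of the mRNAs were, and none was at least 2-fold lower, where 4.79% were. In that comparison ELOVL6 was 7th from the top at 19.8-fold. As deposited, 6 of the 10 genes were highest at D4, where 37.3% of the 9191 mRNAs were, 3 at D8, where 9.51% were, and ACACB at D2, where 16.7% were. The first of these counts includes ACLY and the next one FASN, whose order of D4 and D8 turned with scaling: they were 5 and 4 under median-ratio scaling and 7 and 2 under an equal mRNA sum. Counting error alone does not separate D4 from D8 for MLXIPL, nor D2 from D0 for ACACB. A highest level at D4 together with at least 2-fold over D0 was found, as deposited and with ACLY counted, for 6 of the 10 genes and in 8.29% of the mRNAs, and the same at D8, with FASN counted, for 3 of the 10 and in 1.34%. The comparisons with D0 share its library, and those with D4 share that one, so their values are not independent of each other.

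**Figure D3:**
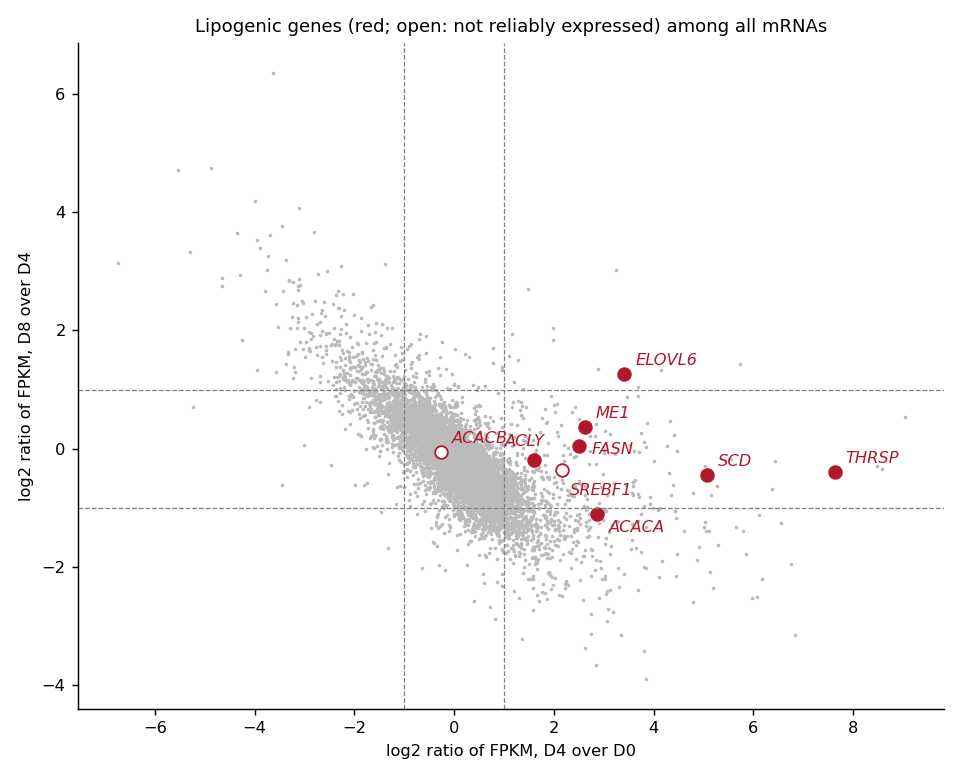
Log2 ratio of FPKM at D8 over D4 (y axis) against D4 over D0 (x axis) for the 9191 reliably expressed mRNAs (grey) and 9 of the 10 lipogenic genes (red, open where not reliably expressed; MLXIPL, with 0 reads at D0, is not drawn). The D4 library enters both axes; THRSP lies farthest right of the red points at 7.63, ELOVL6 is the only one above the 2-fold line, and ACACA the only one below it.

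The composition of the lipogenic transcripts shifted with the stages. The summed FPKM of the 10 genes was 103 at D0, 397 at D2, 1529 at D4, then 1219 at D8, which was 0.0251%, 0.104%, 0.383% and 0.295% of the FPKM of all mRNAs. ACLY led at D0 with 49.8% of the sum and held 10.2% at D4. SCD held 30.6% at D0, 62.9% at D2, 68.9% at D4, then 63.3% at D8 and led from D2 on. THRSP went from 0.882% to 13.9% between D0 and D2 and stood at 11.3% at D8.

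The last 2 enzymes of the route came up at different times. SCD exceeded ELOVL6 8.59-fold at D0, 52.5-fold at D2, 26.9-fold at D4, then 8.21-fold at D8, so the ratio at D8 was close to that before induction although SCD was by then 24.5-fold and ELOVL6 25.6-fold higher. The ratio of ELOVL6 to FASN was 1.21 at D0, 0.929 at D2, 2.27 at D4, then 5.32 at D8. Against SCD and FASN alike, ELOVL6 was thus lower at D2 than at D0 and higher at each later stage than at the one before. At D8 the ratio of ACLY to FASN was 7.71, from 16.9 at D0.

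Set beside the 8 adipocyte markers, most lipogenic genes showed the smaller ratio at D4 over D0. The markers had a median log2 ratio of 3.91 at D4 over D0, and ACLY, ACACA, FASN, ME1 and SREBF1 lay below 7 of the 8, above LEP only. ELOVL6 lay above 2 of the 8, SCD above 6 and THRSP above all 8. From D2 to D4 ELOVL6 lay above all 8 of them. The median log2 ratio of the 10 genes was also below that of the markers at D2 over D0 (0.77 against 2.47) and D8 over D0 (2.76 against 3.72). It was not below at D4 over D2 (1.76 against 1.74), D8 over D4 (-0.27 against -0.49) or D8 over D2 (1.52 against 1.14). From D4 to D8 the markers parted as well: the droplet protein genes CIDEC (0.271, 0.780, 5.01 and 54.6 FPKM) and PLIN1 (90.3 at D8 from 215) went opposite ways, and the transcription factors PPARG and CEBPA were at 25.8 and 37.1 FPKM at D8, down from 51.9 and 162. The fatty acid binding protein FABP4 was at 77.5, 201, 853 and 1557 FPKM, highest at D8 like ELOVL6 and ME1, and lipoprotein lipase, LPL, was at 19.2, 94.7, 250 and 142, highest at D4 like SCD.

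Lists of genes around the route had lower medians than the 10 genes. Of 10 genes that supply acetyl-CoA and citrate, all reliably expressed, 3 were at least 2-fold higher at D4 than at D0 and none was at least 2-fold lower, with a median log2 ratio of 0.66. Across the 9191 mRNAs these shares were 10.4% and 8.81%, and the median was 0.06, which also stand beside the lists that follow. Pyruvate carboxylase, PC, which refills the citrate pool, was at 2.17, 9.17, 30.4 and 15.4 FPKM, and ACSS2, which makes acetyl-CoA from acetate, at 4.38, 7.99, 31.0 and 35.8. The other was ACO1, cytosolic aconitase, which was 3.22-fold lower at D8 than at D4. The citrate carrier SLC25A1 itself was at 11.7, 13.4, 20.1 and 14.5 FPKM.

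Of 10 genes of NADPH supply other than ME1, 3 were at least 2-fold higher at D4 (10.4% of all mRNAs were), none was at least 2-fold lower and 3 were lower by less, with a median of 0.45. Cytosolic isocitrate dehydrogenase, IDH1, was at 39.0, 50.9, 91.2 and 64.7 FPKM, and transketolase, TKT, at 64.1, 113, 141 and 78.9. PGD, of the pentose phosphate pathway, was 2.10-fold higher at D4 and then 2.49-fold lower at D8. ME1 thus had the largest ratio of the NADPH genes measured, 6.15-fold at D4 over D0 against 2.34-fold for IDH1, and was higher at D8 than at D4, where 7 of the 10 were lower.

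For the machinery that processes SREBP proteins, none of the 7 reliably expressed genes of 8 was past 2-fold from D0 to D4 (median 0.42). All 7 were lower at D8 than at D4, with a median log2 ratio of -0.44 where that of all mRNAs was -0.21 and 10.1% were at least 2-fold lower, and SREBF2, the sterol-responsive relative of SREBF1, and the protease gene MBTPS1 were past 2-fold there, at 2.34- and 2.21-fold lower. INSIG1, which holds SREBP in the endoplasmic reticulum, stayed between 22.4 and 32.3 FPKM. LPIN1, which was not reliably expressed, was at 0.267, 0.820, 4.03 and 1.57.

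Among 11 reliably expressed of 12 sugar- and sterol-sensing factors and partners, 3 were at least 2-fold higher at D4 (10.4% of all mRNAs were), none was at least 2-fold lower and 2 were lower by less, with a median of 0.42. MLXIP, a relative of MLXIPL with the same partner MLX, was at 0.421, 1.94, 2.10 and 1.21 FPKM, and the nuclear receptor partner RXRA at 1.41, 2.47, 4.36 and 1.22. The other was the oxysterol receptor NR1H3 at 2.01-fold, which was under 2-fold with median-ratio scaling or a pseudocount of 1, while the shared partner MLX stayed between 12.5 and 18.2 FPKM.

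AMP-activated protein kinase inactivates acetyl-CoA carboxylase. Of 7 genes of the kinase and its activator, 2 were higher and 5 lower at D4 than at D0, none was at least 2-fold higher at D4 and 2 were at least 2-fold lower, where 8.81% of the 9191 mRNAs were, with a median of -0.38. The regulatory subunit PRKAG2 was at 3.93, 1.24, 1.10 and 2.37 FPKM and PRKAB2 at 8.24, 2.40, 2.84 and 4.40, the former lowest at D4 and the latter at D2, and PRKAG2 was 2.15-fold higher at D8 than at D4. The catalytic subunit PRKAA1 stayed between 10.04 and 12.9 FPKM.

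The separate fatty acid synthesis of mitochondria, which makes lipoic acid precursors, had 3 of 8 reliably expressed genes (of 9) at least 2-fold higher at D4 (10.4% of all mRNAs were) and none lower, with a median of 0.68. Its ketoacyl reductase subunit CBR4 was at 1.22, 4.56, 5.62 and 2.01 FPKM, and the malonyl-CoA synthetase ACSF3 at 0.624, 1.47, 2.42 and 1.23. The other was HSD17B8, which pairs with CBR4 in that reductase, at 2.17-fold. Of 12 other chain-modifying enzymes, 10 were reliably expressed, 4 of them were at least 2-fold higher at D4 (10.4% of all mRNAs were), none was at least 2-fold lower and 4 were lower by less, with a median of 0.56. The elongase ELOVL7 was at 0.956, 3.45, 11.4 and 4.73 FPKM and HSD17B12, the reductase of the elongation cycle, at 63.5, 149, 293 and 228, and ELOVL5 and TECR, the enoyl reductase that ends the cycle, were 4.59- and 3.59-fold higher. ELOVL5 and ELOVL7 were both more than 2-fold lower at D8 than at D4, where ELOVL6 was 2.41-fold higher. SCD5, the other desaturase of the SCD type, was at most 0.150 FPKM.

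**Figure D4:**
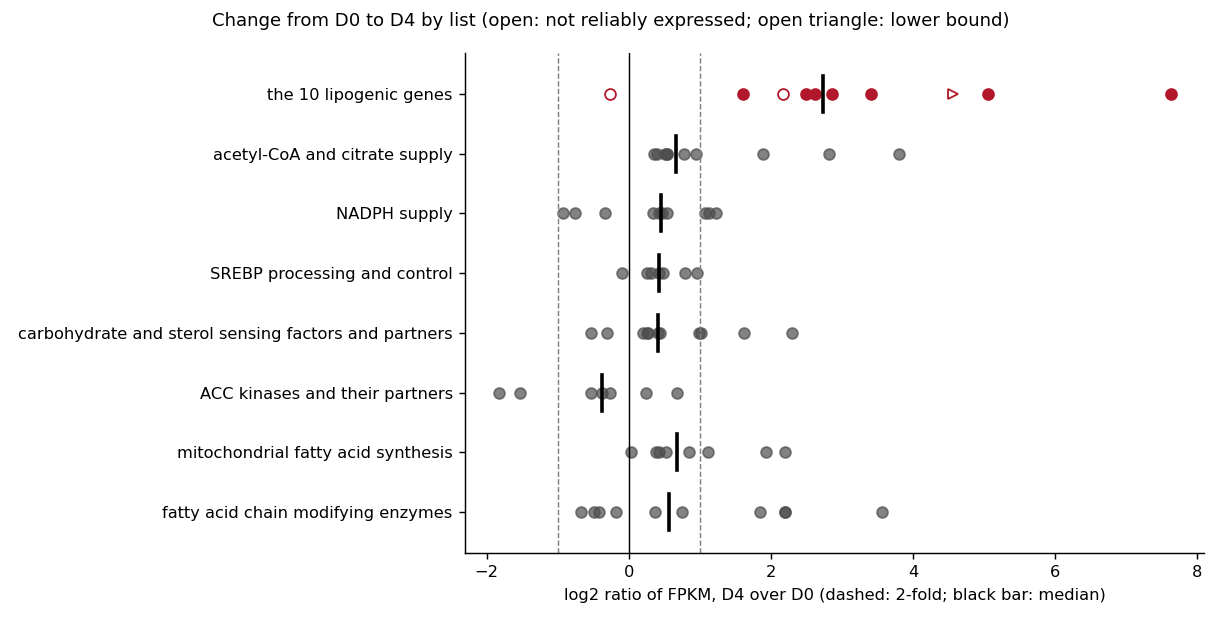
Log2 ratio of FPKM at D4 over D0 (x axis) of the 10 lipogenic genes (red, open where not reliably expressed). The open triangle is MLXIPL against the level of 3 reads at D0 and leaves out counting error at D4. The reliably expressed genes of 7 related lists are in grey, with black bars at the medians and dashed lines at 2-fold. The median of the 10 is 2.74, and those of the lists run from -0.38 for the carboxylase kinases to 0.68 for mitochondrial fatty acid synthesis.

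The mRNAs most like the lipogenic genes were looked for among 4764 reliably expressed mRNAs with at least 10 FPKM in 1 library, by the root mean square difference from the median log2 ratios to D0 of the 7 reliably expressed genes over the 3 later stages. ACSS2 was the closest at 0.0576. It was followed by LOC100737113 (0.257), the fatty acid binding protein gene FABP5 (0.314, at 63.1, 141, 589 and 555 FPKM), LOC110255312 (0.500), FCN2 (0.532), LOC110255272 (0.541), KLB (0.589) and the keratin gene KRT5 (0.594). This likeness rests on 4 libraries and is a description.

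Of 8623 circular RNAs, 13 had both ends within 3 of the genes on the same strand, 8 in ACACA, 4 in ME1 and 1 in ACLY. Circular RNAs arise when a splice donor is joined to an upstream acceptor, and they were measured as SRPBM, junction reads scaled to the size of the library, in which 1 junction read was worth 5.94 to 8.40. Of the 13, 10 were found in 1 library only and 1 in all 4, and all but a pair had at most 13 junction reads in any library. The study kept only circular RNAs with at least 2 junction reads, so a 0 can stand for fewer. The same counts over all 8623 are not given here, so whether these loci differ from others was not tested. The remaining 7 genes had none listed, and 0 reads allow up to 17.8 to 25.2 SRPBM, the value of 3 reads.

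The most abundant, ssc_circ_0000844 of ME1 (chromosome 1, 82875117 to 82891579, plus strand), had 20, 0, 98 and 125 junction reads at D0, D2, D4 and D8, or 128, 0, 582 and 1050 SRPBM. Measured against 3 reads at D2, it was 5.89-fold lower than at D0, whereas ME1 mRNA was 1.73-fold higher at D2. With 0 reads at D2, the counting interval of the circular RNA's log2 ratio reached up to -2.12. From D4 to D8 its log2 ratio was 0.85 (0.46 to 1.25), beside 0.36 for the mRNA.

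The circular RNA found in all libraries, ssc_circ_0005773 of ACACA (chromosome 12, 38796303 to 38800438, minus strand), had 28, 38, 67 and 83 junction reads, or 180, 276, 398 and 697 SRPBM. From D4 to D8 its log2 ratio was 0.81 (0.33 to 1.30) while that of ACACA mRNA was -1.10. Summed over all 8 circular RNAs of ACACA the junction reads were 32, 38, 97 and 110, and the summed values were 576 SRPBM at D4, then 924 at D8. All circular RNAs together had 37480 to 53207 junction reads per library.

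**Figure D5:**
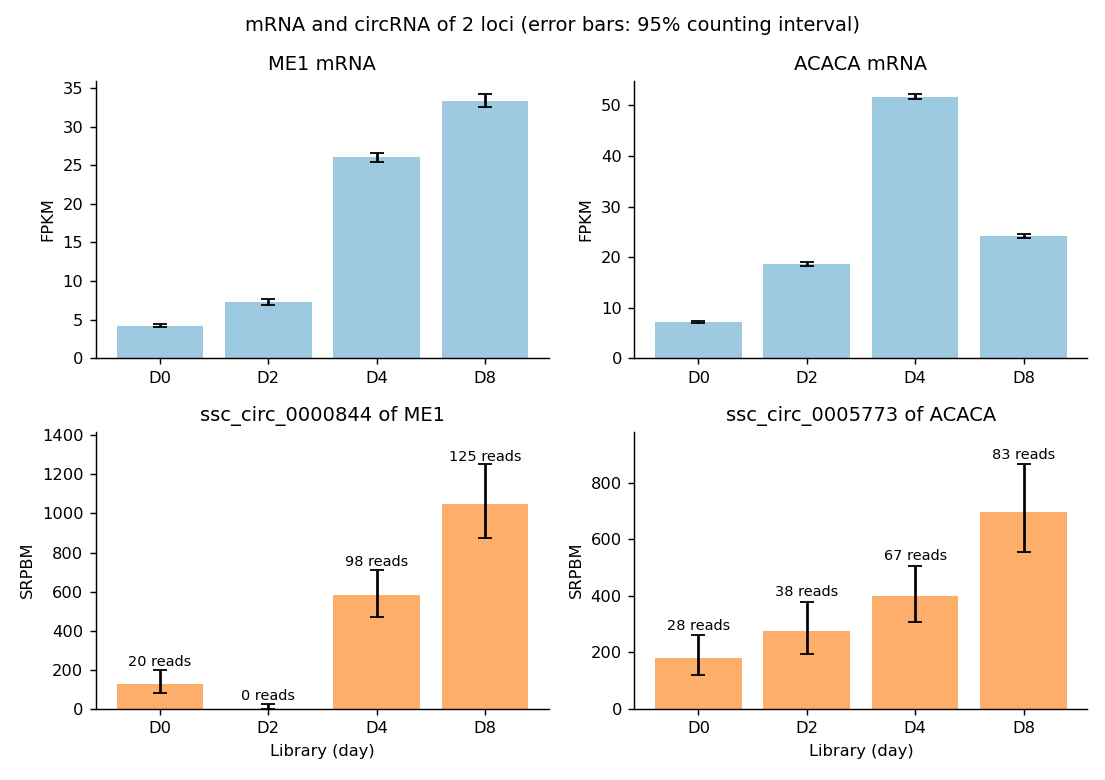
FPKM of ME1 and ACACA mRNA (upper bars) and SRPBM of 1 circular RNA from each gene (lower bars, junction reads above them) in the 4 libraries (x axis), with exact 95% Poisson counting intervals as error bars. The ME1 circular RNA is at 0 reads at D2 and highest at D8 with 125, and that of ACACA is highest at D8 with 83 reads although the mRNA is highest at D4.

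In the genome 4 of the 10 genes, FASN, ACLY, ACACA and SREBF1, lie on chromosome 12, which holds 5.85% of the mRNAs, with gaps of 17.7 to 21.9 Mb between each and the next. The nearest mRNA gene on each side of the 10 genes gave 20 neighbors, of which 11 were reliably expressed, with 3 of them at least 2-fold higher at D4 than at D0 and 1 at least 2-fold lower, where 10.4% and 8.81% of the 9191 mRNAs were. The gene nearest to ACACA, TADA2A, starts 88 bases away on the opposite strand and was at 14.3, 11.9, 10.2 and 11.0 FPKM, without the D4 maximum of ACACA. NDUFC2, 2164 bases from THRSP, was at 142, 175, 170 and 147 FPKM, where THRSP differed 200-fold. Higher neighbors were KLHL11 and TTC25 on the sides of ACLY (4.55 and 4.32 FPKM at D4 from 2.12 and 1.40 at D0) and TBL2 beside MLXIPL (11.3 from 3.15), and the lower one was VPS37D, on the other side of MLXIPL (1.12 from 3.27). C12H17orf78, the only gene on the opposite strand that overlaps any of the 10, lies within ACACA and was at most 0.0336 FPKM.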

How the data were processed

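Strand-specific libraries without ribosomal RNA were made from 4 RNA pools, 1 per stage, each of 3 piglets. Per the labels, the submitters' processing notes name HISAT2 2.0.5 and BWA, and the study's methods name the pig genome Sscrofa11.1. The authors deposited FPKM for mRNAs and lncRNAs (the FPKM unit of each deposited column) and SRPBM for circRNAs, a ratio to the reads mapped in a library, with 1 table per stage. How multi-mapping reads and strands were counted is not given in the sources used here. Gene positions are those of the files, and 10 of 10 genes matched RefSeq (Sscrofa11.1) by symbol, start and end.

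From these values, whole reads were recovered: library totals came from single-exon miRNA genes, and for each gene the smallest length (up to 30000 bases) that made the FPKM of all 4 libraries whole reads within 0.01 was taken. A length found can be a fraction of the true one, as it was for some genes with known answers, and intervals are then too wide. For MLXIPL the length found, 976 bases, may be a fraction of the true one, so its reads are a lower limit. All SRPBM values (100%) were whole junction reads. Ratios were taken on log2(FPKM + 0.01), which understates the change of low genes, and called at 2-fold. Poisson and Clopper-Pearson intervals (95%) and floors of 3 reads cover counting error only, as PCR copies were not marked. With 1 library per stage no test was run. Every column was tied to a sample (0 were not).

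The genes and lists were chosen with earlier results of these data known. Named were the 10 genes, up to 2 genes per list with the largest rise and fall from D0 to D4 among those past 2-fold, the 8 genes most like the 10 and the cell type markers. Other genes named, such as neighbors, the remaining genes of small counts, SLC25A1, INSIG1, LPIN1, MLX, PRKAA1, MID1IP1, SCD5 and the genes past 2-fold from D4 to D8, were chosen after their values were seen. Alternatives were other pseudocounts, scalings, ratios and filters. Protein and promoter sequences and promoter motifs were not analysed here, and 1 gene of the lists is not reported here by name. Python 3.11.15, pandas 2.3.3, numpy 2.4.6, scipy 1.17.1 and matplotlib 3.10.9 were used.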

Additional observations from a re-analysis of the deposited data

How the results depend on the processing

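With 1 library per stage, no library could be left out and still leave its stage with a value. No paired analysis was possible because no stage had a replicate and the result comes from no test. Counts of the 7 reliably expressed genes changed as follows. At a ratio of at least 1.5, 5 were higher from D0 to D2 (3 at 2-fold), and at a ratio of at least 3 none was past it from D4 to D8, with 0 higher and 0 lower (1 and 1 at 2-fold). Under median-ratio scaling 0 were lower from D4 to D8 (ACACA, 1 otherwise), and in the SREBP processing list 1 gene was, also with a pseudocount of 1 (2 otherwise). With that pseudocount 0 carboxylase kinase genes were higher from D4 to D8 (1 otherwise). No other count of the genes or lists moved by over 1.5 times, and the stage of the highest level was the same under the 3 other scalings for all but ACLY, which went to D8 under median-ratio scaling, and FASN, which went to D4 under an equal mRNA sum. A filter on a mean FPKM of at least 1, added after seeing the data, kept 8 of the 10 genes, SREBF1 among them, and 9570 mRNAs, with 11.3% of them at least 2-fold higher at D4 than at D0. Scaling moved the shares of all mRNAs past 2-fold as well: for D8 over D0 they were 3.6% higher and 3.68% lower, and 4.41% and 2.26% under median-ratio scaling. For D4 over D2 they were 4.24% and 0.838%, and 2.85% and 1.72% when scaled by RPLP0, PPIA and HPRT1. For D4 over D0 they were 10.4% and 8.81%, and 7.997% and 11.6% by the same genes, and for D8 over D2 7.01% and 4.79%, and 5.52% and 8.39% by them. Depth limits MLXIPL, with the fewest reads of the 10 genes, and the circRNAs, with at most 125 reads.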
